A study of Mus musculus with 40 samples.

Results

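The chaperones of the endoplasmic reticulum (ER) described here are 10 genes, namely Hspa5, Hsp90b1, Sdf2l1, Creld2, Manf, Pdia4, Pdia6, Dnajb9, Dnajb11 and Calr. They were read on every probe set whose annotation gave one of these symbols alone, which made 17 of the 45037 probe sets on the array and 10 of its 18193 named genes. RNA from mouse liver was hybridised to Affymetrix whole-genome arrays, with 1 array for each of 40 mice. All mice were males of the strain C57BL/6J, 12 weeks old, and either wild-type (Wt) or without the transcription factor Nrf2 (genotype Nrf2-/-, called Nrf2-null). In each genotype 4 mice received vehicle alone, 300 μmol/kg of the dithiolethione D3T, or 3, 10 or 30 μmol/kg of the triterpenoid imidazolide CDDO-Im, both known activators of Nrf2. The groups shared a purified AIN-76A diet and a vehicle of Cremophor-EL and DMSO in buffered saline, were dosed by gavage 3 times over 5 days, and gave their livers 24 h after the last dose. The Nrf2-null mice lack the factor in every tissue and came from heterozygous parents, so that values in liver cannot separate a loss in hepatocytes from one elsewhere.

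Proteins that a cell secretes or places in its membranes are folded inside the ER, and hepatocytes, which make most plasma proteins, hold a great deal of it. Hspa5 (BiP) binds unfolded chains with the help of J-domain partners, Hsp90b1 (GRP94) finishes chosen clients, Calr holds glycoproteins, and protein disulfide isomerases such as Pdia4 and Pdia6 pair cysteines. When unfolded chains build up, the sensors Atf6, Ern1 and Eif2ak3 start the unfolded protein response. Cleaved Atf6 and spliced Xbp1 then raise transcription of these genes through the ER stress response element (ERSE), a CCAAT box that binds NF-Y, a spacer, and CCACG. In liver this response also follows feeding and the time of day.

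The ERSE stretches of the promoters are shown because they are the sequence feature most of these genes are known to share. Promoters reached from 250 bases before to 50 bases after the start of a gene, in RefSeq on build GRCm38.p6, and 9 of the 10 genes had an entry. The ERSE, written as CCAAT, then 9 bases of any kind, then CCACG, was searched on both strands and occurred in 39 of 32851 promoters (0.119%). It stood in 5 of the 9 member promoters, those of Hspa5, Hsp90b1 (2 copies), Creld2, Pdia6 and Calr. Capitals mark CCAAT and CCACG, or ATTGG and CGTGG where the element lies on the other strand, and each sequence is written 5′ to 3′ on the strand of its gene.
Hspa5, chr2:34772010-34772058, plus strand: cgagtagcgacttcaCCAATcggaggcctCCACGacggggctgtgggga
Hsp90b1, chr10:86705623-86705671, minus strand: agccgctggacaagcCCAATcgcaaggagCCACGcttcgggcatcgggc
Hsp90b1, chr10:86705518-86705566, minus strand: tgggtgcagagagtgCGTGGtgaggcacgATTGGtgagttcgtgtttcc
Creld2, chr15:88819505-88819553, plus strand: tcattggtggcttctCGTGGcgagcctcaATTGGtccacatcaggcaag
Pdia6, chr12:17266476-17266524, plus strand: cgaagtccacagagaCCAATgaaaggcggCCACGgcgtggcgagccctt
Calr, chr8:84847060-84847108, minus strand: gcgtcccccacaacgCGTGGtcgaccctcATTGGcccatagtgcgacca

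The first base of the element lay between 65 bases (Hspa5) and 212 bases (Hsp90b1) before the start. The short motif CCACG alone stood in 9 of 9 member promoters and in 32.8% of all promoters, and CCAAT alone in 9 of 9 and in 37.4%. Both short motifs are contained in the ERSE and so overlap with it. The related ERSE-II, written as ATTGG, 1 base of any kind and CCACG, which holds both short motifs too, was found in Dnajb11 among the members and in 0.0365% of all promoters. TGACGTGG, which contains CGTGG and so overlaps with CCACG on the other strand, was in none of the 9 and in 0.676% of all. These are matches of letters in a fixed window and show no binding.

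Of the 17 probe sets, 15 reached a log2 value of 4 on 3 or more arrays of a group, and all 10 genes kept a probe set. The probe sets left out were one of Pdia4 (2.19 to 3) and one of Pdia6 (2.08 to 5.12). Where a gene kept several probe sets, the one with the highest mean stands for it, and a difference is called where limma's Benjamini-Hochberg adjusted p over 9695 genes was under 0.05. On one of its 2 probe sets Nfe2l2, the gene of Nrf2, read 10.77 to 11.75 in Wt and 2.72 to 3.1 in Nrf2-null mice, while the other overlapped (4.49 to 7.1 and 5.96 to 7.47). Hepatocyte markers summed to 18.12 to 18.45 on the log2 scale on all arrays, and markers of T cells (0 of 5) never reached the minimum. Markers of plasma cells and B cells, another cell type with much ER, summed to 11.12 in Wt vehicle replicate 1, where 4 of 8 reached the minimum, against 5.95 to 9.87 in the other 39 mice. Mzb1, Cd79a, Tnfrsf17 and Pou2af1 were below it on every array. Of 11 measured exocrine pancreas markers, the sum stood at 14.84 and 16.95 in replicates 1 and 4 of the Nrf2-null mice given 30 μmol/kg CDDO-Im and at 12.87 in replicate 2 of those given 10 μmol/kg, against 7.76 to 11.11 elsewhere. In Wt CDDO-Im 10 replicate 3 and Nrf2-null D3T replicate 1 the sums were 10.08 and 10.56. There 7 of these 11 markers reached the minimum, against 2 or 3 in most mice. Nrf2-null D3T replicate 4 was low in Kupffer cell (11.61) and endothelial markers (10.64). The mice given D3T or 30 μmol/kg CDDO-Im carry animal numbers in a lower range than all others. For D3T or 30 μmol/kg against vehicle, and for 10 μmol/kg against D3T or 30 μmol/kg, treatment and animal number range therefore cannot be told apart. In whole liver, fewer cells of a type and less RNA per cell cannot be told apart either.

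In Wt liver the chaperones stood lower after D3T and after 10 μmol/kg CDDO-Im, but not after 30 μmol/kg. Against vehicle, 4 of 10 fell with D3T and 4 of 10 with 10 μmol/kg CDDO-Im, and none rose. Over all genes 1.59% and 12.4% were called lower. Both member counts fell to 0 when some single mice were left out. At 3 μmol/kg none was called (0.474% of all genes), and at 30 μmol/kg only Pdia4 was, as higher (2.81% of all genes). D3T and the highest dose of CDDO-Im lie in the same animal number range, and between them 9 of 10 were higher with CDDO-Im, beside 4.45% of all genes. In Nrf2-null liver no member was called on these probe sets in any comparison of a treatment with vehicle or of 30 μmol/kg CDDO-Im with D3T or with 10 μmol/kg. Of all genes, 0.0722% to 4.09% were called in these comparisons. Those of 30 μmol/kg with D3T or with 10 μmol/kg in Nrf2-null liver were added after the data were seen. The other kept probe set of Hsp90b1 was lower in Nrf2-null liver at 3, 10 and 30 μmol/kg than with vehicle. In Wt its mean at 10 μmol/kg, 13.77, lay above that with vehicle, 13.48.

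**Figure D1:**
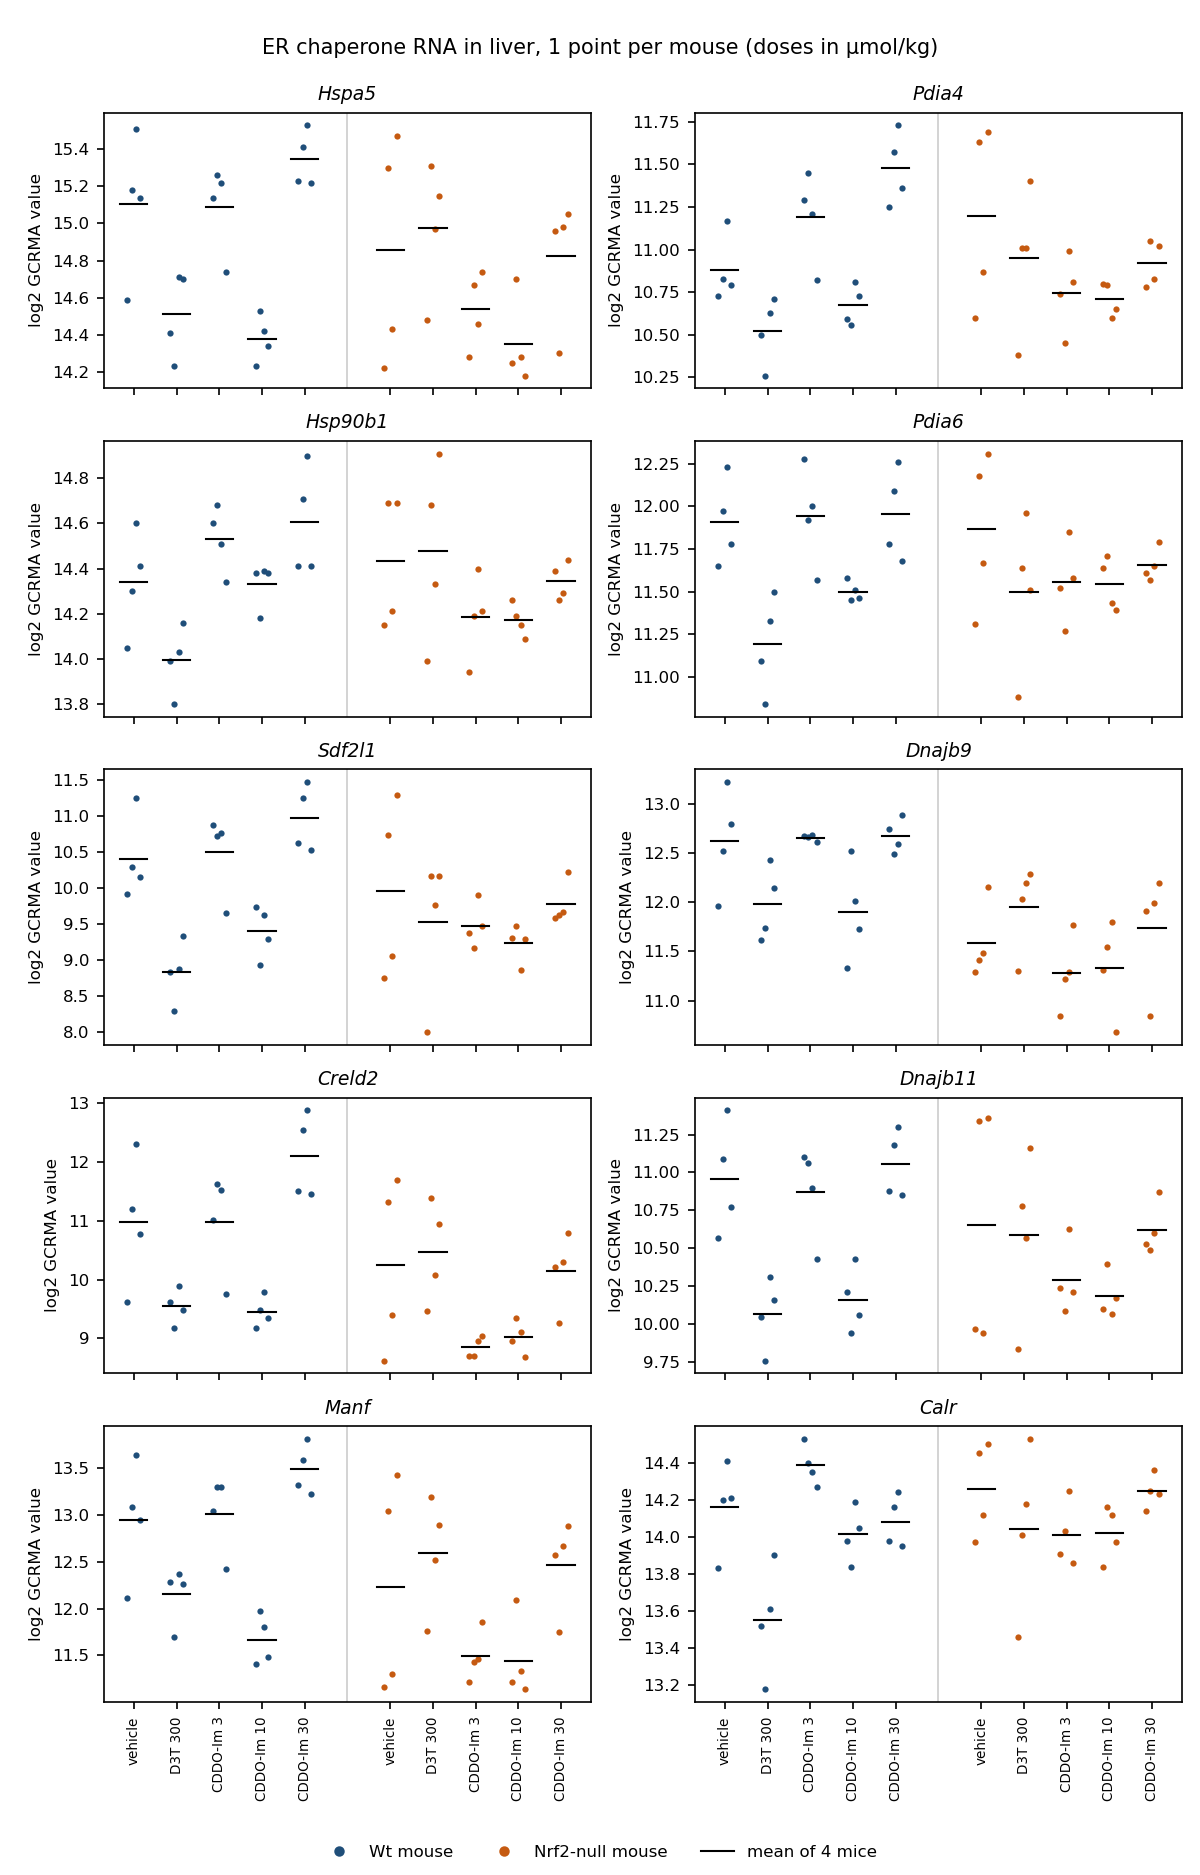
RNA level of the 10 ER chaperones as log2 GCRMA values on the vertical axis, with 1 point per mouse, for the 5 treatments in Wt (blue) and Nrf2-null (orange) liver. Bars are means of 4 mice. In Wt, D3T and CDDO-Im 10 lie low for most genes. CDDO-Im 30 lies above D3T in all 10, but overlaps with vehicle in all but Pdia4. The Nrf2-null vehicle mice lie apart from each other, as for Creld2 from 8.62 to 11.69.

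Hspa5, the Hsp70 chaperone to which the unfolded protein sensors bind at rest, read 14.59, 15.18, 15.51 and 15.14 in the 4 Wt vehicle mice. It read 14.41, 14.23, 14.71 and 14.7 with D3T and 14.23, 14.53, 14.42 and 14.34 with 10 μmol/kg CDDO-Im. All 4 of the 10 μmol/kg mice lay below every vehicle mouse, whereas the D3T mice overlapped with the vehicle mouse at 14.59. With 3 μmol/kg the values were 15.14, 15.26, 15.22 and 14.74, and with 30 μmol/kg 15.23, 15.41, 15.53 and 15.22. All but the value of 15.53 lay within the vehicle range, which ended at 15.51. Group means ran from 14.38 ± 0.13 (SD, n = 4) at 10 μmol/kg through 14.51 ± 0.23 with D3T, 15.09 ± 0.24 at 3 μmol/kg and 15.1 ± 0.38 with vehicle to 15.35 ± 0.15 at 30 μmol/kg. The fall at 10 μmol/kg was −0.73 (SE 0.22, adjusted p = 0.02), while the difference of −0.59 with D3T did not pass (adjusted p = 0.12). After 30 μmol/kg Hspa5 was 0.97 above 10 μmol/kg (adjusted p = 0.0021) and 0.84 above D3T (adjusted p = 0.0042). The neighbours D3T and 10 μmol/kg (−0.13, adjusted p = 0.72) did not differ beyond their spread, nor did 3 μmol/kg, vehicle and 30 μmol/kg. Of the other probe sets of the gene, the second read −0.68 at 10 μmol/kg (adjusted p over probe sets = 0.082) and the third −0.08, and with the mean of all 3 the fall did not pass (−0.5, adjusted p = 0.1). All 3 were higher at 30 μmol/kg than with D3T.

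The 3 partners of Hspa5 also had their lowest Wt means with D3T or 10 μmol/kg CDDO-Im. Sdf2l1, a small ER protein that works in a complex with Dnajb11, read 9.91, 10.29, 11.24 and 10.15 in Wt vehicle mice and 8.83, 8.29, 8.88 and 9.33 with D3T. Every D3T mouse was below every vehicle mouse, and the fall was −1.57 (SE 0.44, adjusted p = 0.035), to 0.337 of the vehicle level. With 10 μmol/kg the values of 9.74, 8.94, 9.62 and 9.3 were also all below vehicle, but the difference of −1 did not pass (adjusted p = 0.11). With 30 μmol/kg Sdf2l1 read 10.63, 11.25, 11.47 and 10.52, which was 4.4 times D3T (log2 2.14, SE 0.44, adjusted p = 0.00046). Dnajb11, which hands unfolded chains to Hspa5, read 10.57, 11.09, 11.41 and 10.77 with vehicle, 10.05, 9.76, 10.31 and 10.16 with D3T and 10.21, 9.94, 10.43 and 10.06 with 10 μmol/kg. Both treated groups lay wholly below vehicle, by −0.89 (adjusted p = 0.043) and −0.8 (adjusted p = 0.028), and 30 μmol/kg was higher than both (0.98 and 0.9). Dnajb9, a J-domain protein linked to ER-associated degradation, was called in none of these Wt comparisons. It averaged 12.62 ± 0.53 (SD, n = 4) with vehicle and 12.68 ± 0.17 at 30 μmol/kg, against 11.98 ± 0.37 with D3T and 11.9 ± 0.5 at 10 μmol/kg, and its mice overlapped in every comparison with vehicle.

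Creld2 and Manf, ER proteins rich in cysteine that are known as sensitive readouts of the unfolded protein response, had the widest spread of the 10 in Wt vehicle mice, with SDs of 1.11 and 0.63. Creld2 read 9.62, 11.2, 12.3 and 10.77 with vehicle, 9.62, 9.17, 9.89 and 9.49 with D3T, and 9.17, 9.49, 9.79 and 9.34 with 10 μmol/kg. The vehicle mouse at 9.62, replicate 1, overlapped with both treated groups and is the one with the highest plasma and B cell markers, whose part was not tested. Without it, 5 members were called in each of these comparisons with vehicle. The fall at 10 μmol/kg was −1.53 (SE 0.53, adjusted p = 0.045) and the difference with D3T, −1.43, did not pass (adjusted p = 0.13). The call at 10 μmol/kg was lost under 6 of 11 alternatives, among them centred arrays (−1.47, adjusted p = 0.055) and the fit to the groups of 1 animal number range (adjusted p = 0.074), and without any 1 of Wt vehicle replicates 2, 3 and 4 and CDDO-Im 10 replicates 1, 2 and 4 (adjusted p up to 0.2). With 30 μmol/kg Creld2 read 11.51, 12.55, 12.88 and 11.46, above every mouse given D3T or 10 μmol/kg, by 2.56 (SE 0.53, adjusted p = 0.00057) and 2.66 (SE 0.53, adjusted p = 0.00076). In linear terms these were 5.91-fold and 6.3-fold. Manf read 12.11, 13.09, 13.64 and 12.95 with vehicle, 12.29, 11.7, 12.37 and 12.26 with D3T, and 11.41, 11.98, 11.8 and 11.48 with 10 μmol/kg. The 10 μmol/kg mice were all below vehicle (−1.28, SE 0.38, adjusted p = 0.018), and D3T overlapped with it (−0.79, adjusted p = 0.25). The 30 μmol/kg mice read 13.32, 13.59, 13.82 and 13.23 for Manf, which was 1.82 above 10 μmol/kg (adjusted p = 0.001) and 1.34 above D3T (adjusted p = 0.0079).

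The disulfide isomerases, the lectin chaperone and the Hsp90 of the ER differed by less than 1 log2 unit in every Wt comparison on the probe sets that stand for them, though not on the other probe set of Hsp90b1 (1.4 between 30 μmol/kg and D3T). Pdia6 read 11.65, 11.97, 12.23 and 11.78 with vehicle and 11.09, 10.84, 11.33 and 11.5 with D3T, with no overlap and a fall of −0.72 (SE 0.19, adjusted p = 0.03). Pdia4 read 10.73, 10.83, 11.17 and 10.79 with vehicle and 11.25, 11.57, 11.73 and 11.36 with 30 μmol/kg CDDO-Im. All 4 treated mice were above all vehicle mice, and this was the one rise against vehicle on the probe sets that stand for the genes (0.6, SE 0.19, adjusted p = 0.02). It no longer passed without Wt vehicle replicate 1 or CDDO-Im 30 replicate 2 or 3, which left 0 members called, and without Wt vehicle replicate 3 the count was 2. Calr, which also buffers calcium, read 13.83, 14.2, 14.41 and 14.21 with vehicle and 13.52, 13.18, 13.61 and 13.9 with D3T. The mouse at 13.9 overlapped with vehicle, and the fall was −0.61 (SE 0.16, adjusted p = 0.02). At 10 μmol/kg Calr averaged 14.02 ± 0.14 (SD, n = 4) and was not called against vehicle (−0.15), but was 0.47 above D3T (SE 0.16, adjusted p = 0.033), the one member called between these groups of different animal number ranges, where 4.87% of all genes were called higher. The one member whose mice did not overlap between them was Hsp90b1 (0.34, adjusted p = 0.1), beside 6.69% of all genes. The call of Calr was lost without any 1 of 6 mice, namely Wt D3T replicates 1, 2 and 3 and CDDO-Im 10 replicates 1, 3 and 4. Hsp90b1 averaged 13.99 ± 0.15 with D3T, 14.34 ± 0.23 with vehicle, and 14.33 ± 0.1 and 14.61 ± 0.24 at 10 and 30 μmol/kg CDDO-Im, with no call against vehicle on this probe set.

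Taken over the 10 genes, all differences between D3T and vehicle in Wt were negative, from −1.57 to −0.35, with a median of −0.68 against 0 over all genes tested. The 4 members called lower, Sdf2l1, Pdia6, Dnajb11 and Calr, stood beside 1.59% of all genes called lower, and 9 of 10 had an unadjusted p under 0.05. The mice did not overlap in 4 members, all lower (Sdf2l1, Pdia4, Pdia6 and Dnajb11), against 5.95% of all genes. No member passed when Wt vehicle replicate 2 or 3, or D3T replicate 1 or 2, was left out. At 10 μmol/kg CDDO-Im the 10 differences ran from −1.53 to −0.01 with a median of −0.73, against −0.08 over all genes. The 4 called, Hspa5, Creld2, Manf and Dnajb11, stood beside 12.4% of all genes called lower, and the 5 without overlap beside 15.5%. With each array centred on its own median, Hsp90b1 turned positive, 3 members were called and the share of higher calls among all called genes was 43.8% in place of 28.9%. No member passed without Wt vehicle replicate 3 or CDDO-Im 10 replicate 1, 1 without Wt vehicle replicate 2, and 2 without CDDO-Im 10 replicate 4. These comparisons share the 4 vehicle mice.

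At 30 μmol/kg against vehicle the members' median was 0.25, and that of all genes −0.16, a shift by over 0.1 that centring each array removed. The 1 member called higher stood beside 2.81% of all genes, and the 1 without overlap beside 4.21%. Calr, at −0.08, was the only negative difference, and it was 0.09 with centred arrays, where the members' median was 0.43 and higher calls made up 53.9% of all calls in place of 11.9%. At 3 μmol/kg the members lay between −0.09 and 0.31 (median 0.05), none was called by limma, 0 had an unadjusted p under 0.05, and 0.474% of all genes were called.

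**Figure D2:**
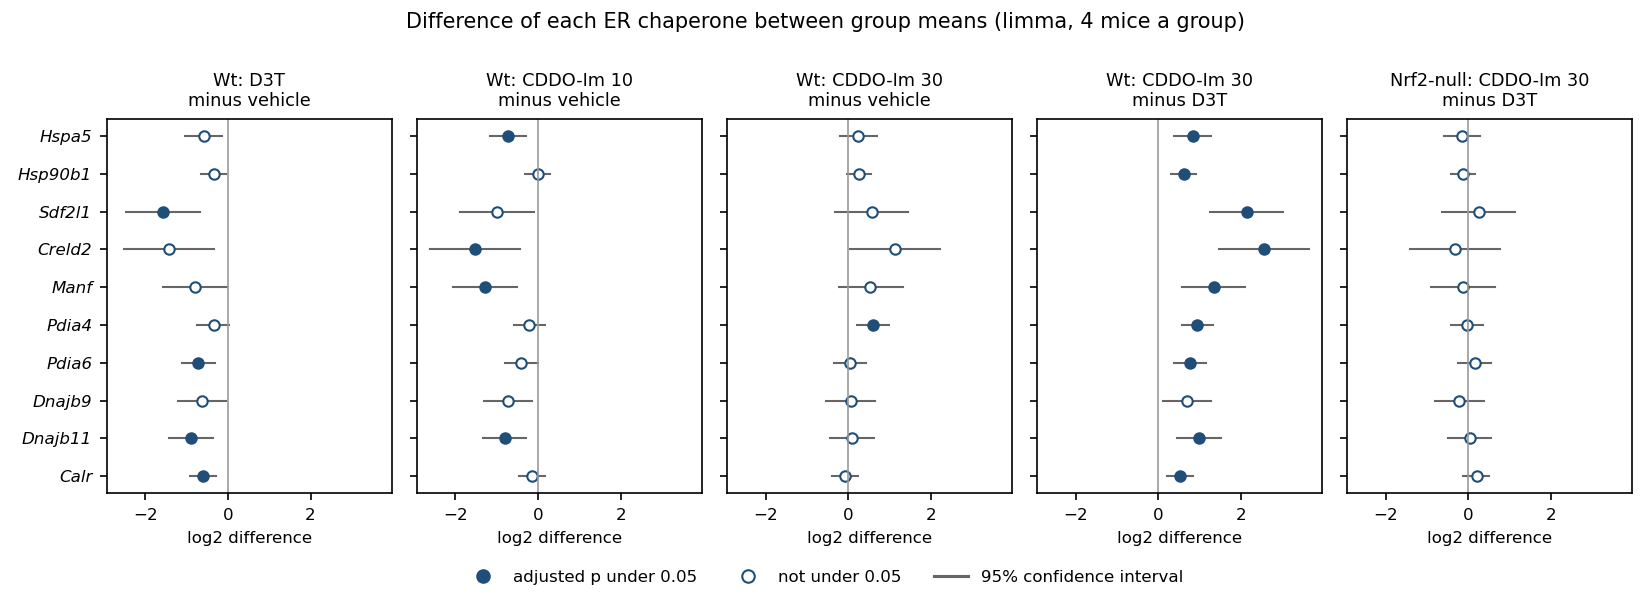
Differences between group means on the log2 scale (horizontal axis) for each of the 10 genes, with 95% confidence intervals from limma and 4 mice a group; filled points passed an adjusted p of 0.05. Against vehicle 4 genes fell with D3T and 4 with CDDO-Im 10 (1.59% and 12.4% of all genes called lower). In Wt, 9 of 10 were higher with CDDO-Im 30 than with D3T, beside 4.45% of all genes. None differed in this way in Nrf2-null mice, where 2.89% of all genes were called. That Nrf2-null comparison was added after the data were seen.

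Within the lower animal number range, the highest CDDO-Im dose was set against D3T in Wt, 2 agents at different doses. The 9 called members stood beside 4.45% of all genes called higher, and in all 10 every CDDO-Im mouse was above every D3T mouse, against 5.61% of all genes. The differences ran from 0.53 (Calr, SE 0.16, adjusted p = 0.0096) to 2.56 (Creld2), with a median of 0.89 against −0.16 over all genes. Hsp90b1 was higher by 0.62 (adjusted p = 0.0018), Pdia4 by 0.95 (adjusted p = 0.00031) and Pdia6 by 0.76 (adjusted p = 0.0033). Dnajb9, which did not pass (0.69, adjusted p = 0.065), did so with centred arrays, where all 10 were called and 53.8% of all calls were higher in place of 14.5%. Leaving out any 1 of the 8 mice left 8 to 10 members called. The fit to the D3T and 30 μmol/kg groups alone, which keeps the same 8 mice and changes only the estimate of spread, also called 9.

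Between 30 and 10 μmol/kg CDDO-Im in Wt, 6 members were higher at the higher dose, namely Hspa5, Sdf2l1, Creld2, Manf, Pdia4 and Dnajb11, beside 5.25% of all genes. These groups lie in different animal number ranges, so dose and range cannot be told apart here. In 8 members the mice did not overlap, against 7.32% of all genes, and the median was 0.85 against −0.07. Sdf2l1 was higher by 1.57 (SE 0.44, adjusted p = 0.011) and Pdia4 by 0.8 (SE 0.19, adjusted p = 0.0029). Hsp90b1 (0.28), Pdia6 (0.46), Dnajb9 (0.78) and Calr (0.07) did not pass, with adjusted p from 0.052 to 0.82. With centred arrays 8 were called and 58.1% of all calls were higher in place of 27%.

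In Nrf2-null liver the vehicle mice differed widely among themselves. Creld2 read 8.62, 11.32, 9.39 and 11.69 in its 4 mice and Manf 11.16, 13.04, 11.3 and 13.43. Hspa5 read 14.22, 15.3, 14.43 and 15.47, so that replicates 1 and 3 were low and 2 and 4 high in each of these genes. Averaged over the 10 members, replicates 1 and 3 lay 0.73 and 0.48 below their group mean, with all 10 members below it, and replicates 2 and 4 lay 0.48 and 0.73 above, with 9 and 10 members above. The median SD of the members was 0.59 in this group and 0.37 in Wt vehicle mice, where replicate 1 had all 10 members below and replicate 3 all 10 above the group mean. Over all genes the median SD was 0.22 and 0.14. Of the 10 groups the members' SD was least with 10 μmol/kg in Wt (median 0.18) and in Nrf2-null liver (0.19).

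With D3T, Nrf2-null mice read 9.46, 11.39, 10.08 and 10.94 for Creld2 and 14.48, 15.31, 14.97 and 15.15 for Hspa5, within the range of their vehicle mice. At 3 μmol/kg CDDO-Im Creld2 read 8.7, 8.7, 8.96 and 9.04, at 10 μmol/kg 8.96, 9.34, 9.1 and 8.69, and at 30 μmol/kg 10.21, 9.26, 10.3 and 10.79. All mice of the lower doses thus lay below 9.39, the second lowest vehicle mouse. At the highest dose 1 mouse did, and the other 3 lay between it and the high vehicle mice. No member was called by limma against vehicle with D3T (median −0.01), 3 μmol/kg (−0.34), 10 μmol/kg (−0.48) or 30 μmol/kg (−0.06). An unadjusted p under 0.05 was reached by 0, 2, 4 and 0 members, and 4.09%, 0.774%, 0.0722% and 0.175% of all genes were called. Without vehicle replicate 1, 2 members were called at 3 μmol/kg and 3 at 10 μmol/kg. The 95% interval at 10 μmol/kg ran from −0.95 to −0.06 for Hspa5 and from −2.32 to −0.15 for Creld2, so that falls of the size seen in Wt lie inside it.

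In Nrf2-null mice the members at the highest CDDO-Im dose differed from those after D3T by −0.33 to 0.25 (median −0.08). None was called, none had an unadjusted p under 0.05, the mice overlapped in all 10, and 2.89% of all genes were called. The difference of this contrast between genotypes, Wt minus Nrf2-null, was positive in all 10 members with a median of 0.96, against −0.17 over all genes. It passed for 5, beside 2.57% of all genes called higher, namely Creld2 (2.89, SE 0.76, adjusted p = 0.01), Sdf2l1 (1.88, SE 0.62, adjusted p = 0.035), Hspa5 (0.99, adjusted p = 0.028), Pdia4 (0.98, adjusted p = 0.013) and Hsp90b1 (0.74, adjusted p = 0.014). Manf (1.46, adjusted p = 0.059) and Dnajb11 (0.95, adjusted p = 0.071) did not pass. This comparison and that within Nrf2-null mice were added after the data were seen. For the genotype difference, higher calls were 55% of all calls with centred arrays in place of 16.2%, with 7 members called. The count was 4 without the 3 mice that stood out in pancreas markers, and 1, Creld2, when Nrf2-null D3T replicate 4 was also left out. It was 3 without any 1 of Wt D3T replicates 1 and 2, Wt CDDO-Im 30 replicate 3, Nrf2-null D3T replicates 2 and 4 and Nrf2-null CDDO-Im 30 replicate 2, and 8 without Nrf2-null D3T replicate 1.

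The genotype differences of the responses against vehicle were less resolved. For D3T all 10 were negative with a median of −0.77, none was called by limma, 5 had an unadjusted p under 0.05, and 0.0722% of all genes were called. For 10 μmol/kg CDDO-Im the median was −0.25, with 0 called, 0 at an unadjusted p under 0.05, and 5.4% of all genes called, so that the fall in Wt was not shown to differ from that in Nrf2-null liver. For 30 μmol/kg Pdia4 passed (0.87, adjusted p = 0.03), 1 member beside 1.78% of all genes called higher; the call was lost without the 3 mice with pancreas markers (adjusted p = 0.096). It was lost too without any 1 of Wt vehicle replicates 1 and 2, Wt CDDO-Im 30 replicates 2 and 3, Nrf2-null vehicle replicates 2 and 4 and Nrf2-null CDDO-Im 30 replicates 1 and 3. Centring raised the share of higher calls there from 15% to 51.7%, again with 1 member called. Among vehicle mice 1 member, Dnajb9, differed by genotype on the probe sets that stand for the genes. It read 11.96, 12.52, 13.22 and 12.79 in Wt and 11.29, 11.41, 11.48 and 12.15 in Nrf2-null mice, of which 1 overlapped. It was lower by −1.04 (SE 0.29, adjusted p = 0.017), beside 4.97% of all genes called lower, and did not pass without Wt vehicle replicate 3. With centred arrays 1 member was again called, and 32.3% of all calls were higher in place of 54.1%. Between 30 and 10 μmol/kg in Nrf2-null liver the median was 0.42. None was called by limma, 3 had an unadjusted p under 0.05, 3 did not overlap (beside 5% of all genes), and 0.402% of all genes were called. The genotype difference of that contrast had a median of 0.48 with 0 called, 1 at an unadjusted p under 0.05, and 1.45% of all genes called. It and the Nrf2-null contrast of 30 with 10 μmol/kg were added after the data were seen.

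Hsp90b1 was read by a pair of probe sets that disagreed. The one used above averaged 14.33 at 10 μmol/kg and 14.34 with vehicle in Wt, and its Nrf2-null groups were not called. The other read 13.18, 13.47, 13.79 and 13.5 with vehicle in Wt and 14.26, 14.29, 14.58 and 14.03 at 30 μmol/kg, a rise of 0.81 without overlap (adjusted p over all kept probe sets = 0.0037). Its Wt means were 13.48 with vehicle, 12.89 with D3T, and 14.09 and 13.77 at 3 and 10 μmol/kg CDDO-Im, both above vehicle. In Nrf2-null mice it read 13.9, 14.62, 13.89 and 14.47 with vehicle and fell by 0.85, 1.08 and 0.79 at 3, 10 and 30 μmol/kg (adjusted p = 0.018, 0.0041 and 0.04). Its vehicle level was also 0.74 higher in Nrf2-null than in Wt mice (adjusted p = 0.012). Against D3T, 30 μmol/kg was higher on both probe sets in Wt. The 3 probe sets of Calr gave like values, with falls of −0.61, −0.7 and −0.66 with D3T that all passed.

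**Figure D3:**
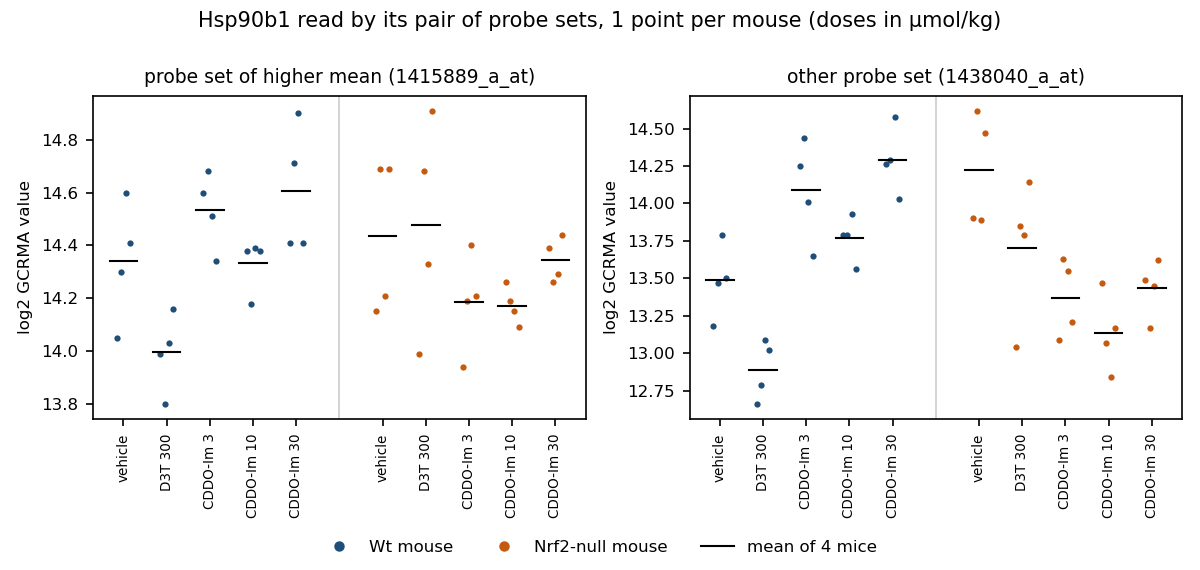
Log2 GCRMA values (vertical axis) of the 2 kept probe sets of Hsp90b1, 1 point per mouse with the mean of 4 mice as a bar, in Wt (blue) and Nrf2-null (orange) liver. The right panel separates the Nrf2-null vehicle group, mean 14.22, from CDDO-Im 10, mean 13.14, which the left panel does not (14.43 and 14.17).

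From mouse to mouse the members moved together. Over the 40 arrays the correlation of deviations from the group means was 0.35 to 0.98 among the 45 pairs, with a median of 0.78. For Hspa5 against the 9694 other genes it ran from −0.82 to 0.98 with a median of 0. The closest pair was Hspa5 and Manf (0.98) and the loosest Pdia4 and Dnajb9 (0.35). These values are descriptions, since the points share arrays and scaling. Over all arrays without removing group means, the genes outside the 10 most like Hspa5 were Sel1l (r = 0.93), Gfpt1 (0.92), Hspa13 (0.91), Syvn1 (0.9) and Atp2a2 (0.9), followed by Hsph1, Spcs2, Ubfd1, Sec24d and Magt1 (0.88 to 0.86). Sel1l and Syvn1 form the core of the ubiquitin ligase that removes misfolded ER proteins, and Atp2a2 pumps calcium into the ER. Calr was the member least like Hspa5 (r = 0.57, rank 272 of 9694). Hsp90b1, Dnajb9 and Pdia6 ranked 41, 62 and 63, so many genes outside the 10 were more like Hspa5 than these members.

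Clock genes moved with some of these groups. A clock score, the mean of 6 genes known to peak toward evening (such as Dbp and Nr1d2) minus that of 5 known to peak toward morning (such as Arntl and Npas2), averaged −2.94 in Wt mice given vehicle. It averaged −0.21 after D3T and, at rising doses of CDDO-Im, −3, 2.92 and −2.47. Thus both groups with low chaperones in Wt also had the higher clock scores. In the Nrf2-null 10 μmol/kg mice the score was 2.1, −2.46, 2.52 and −2.72, while their members' mean lay 0.86, 0.59, 0.86 and 1 below the Wt vehicle mean. In the Nrf2-null vehicle mice the score was 3.17, −3.4, −2.76 and −3.48. Their members' mean differed from that of Wt vehicle by −1.03, 0.18, −0.78 and 0.43. In the Nrf2-null 3 μmol/kg mice the score ran from −3.17 to −2.54 and the members' mean lay 0.95, 0.91, 0.61 and 0.67 below that of Wt vehicle. The part of the clock state in the chaperone differences was not tested. Exocrine pancreas, whose cells also hold much ER, stood out in Nrf2-null CDDO-Im 30 replicates 1 and 4, where the members deviated by 0 and 0.27 from their group mean; its part was not tested.

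**Figure D4:**
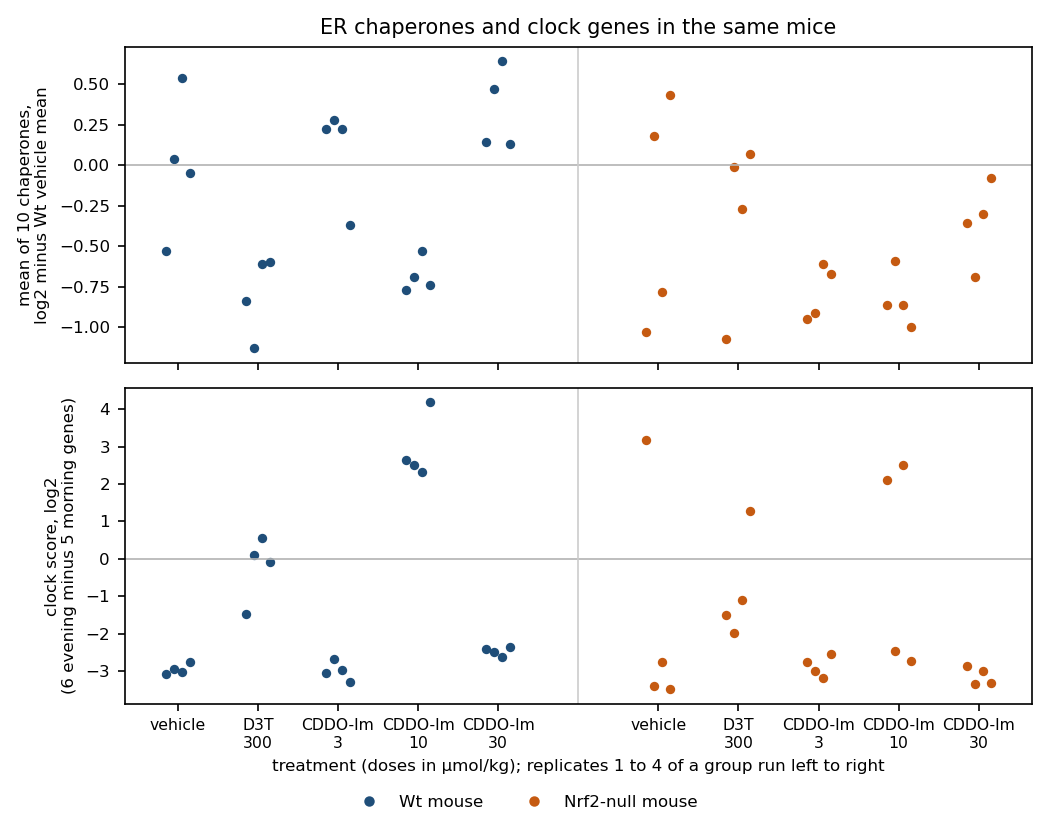
Mean over the 10 chaperones of the log2 difference from the Wt vehicle mean (upper panel) and clock score on the log2 scale (lower panel) for each mouse, with doses on the horizontal axis. All 4 Wt CDDO-Im 10 mice have scores from 2.33 to 4.18 and chaperone means 0.53 to 0.77 below Wt vehicle. The 4 Nrf2-null CDDO-Im 10 mice have scores from −2.72 to 2.52 and chaperone means 0.59 to 1 below it.

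Other genes of ER folding and quality control were counted from lists, whose medians are to be read beside −0.16 over all genes at 30 μmol/kg against D3T. Over all genes, 4.45% were called higher and 26.2% lower in that comparison, 2.64% and 1.59% with D3T, 5.06% and 12.4% at 10 μmol/kg, and 2.81% and 20.8% at 30 μmol/kg against vehicle. They were 5.25% and 14.2% for 30 against 10 μmol/kg. For the genotype difference between 30 μmol/kg and D3T they were 2.57% and 13.3%. With centred arrays the shares lower at 30 μmol/kg were 10% against D3T and 5.61% against vehicle. Of 28 other folding factors measured, 10 were higher and 2 lower at 30 μmol/kg CDDO-Im than with D3T in Wt (median 0.15), among them Ero1b, which oxidises disulfide isomerases (1.02, adjusted p = 0.00043), the isomerase Pdia3 (0.99, adjusted p = 4.5e-05), Qsox1 (0.9) and Creld1 (0.88). Sdf2, the relative of Sdf2l1 that is not known as a stress gene, fell (−0.46, adjusted p = 8e-05). Between 30 and 10 μmol/kg in Wt, 7 of 28 were higher and 0 lower (median 0.31). Against vehicle, 3 of 28 were lower with D3T (Creld1 −0.88, Pdia3 −0.68, Canx −0.28), 5 lower at 10 μmol/kg (Hspa13 −0.71, Ero1a −0.69, Uggt1 −0.58 and Dnajc1 −0.35 among them), and 2 higher and 1 lower at 30 μmol/kg (Qsox1 0.62, P4hb 0.24, Sdf2 −0.32). The genotype difference between 30 μmol/kg and D3T was higher for 8 and lower for 1, with Hyou1, a nucleotide exchange partner of Hspa5 (1.11, adjusted p = 0.048), Hspa13 (1.09), Dnajc3 (1.08) and Ero1b (1.03) the largest.

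Of 13 measured sensors and factors that drive the response, 1 was higher and 3 lower at 30 μmol/kg CDDO-Im than with D3T (median −0.12): Xbp1 (0.5, adjusted p = 0.0085), whose probe set does not tell spliced from unspliced RNA, and the NF-Y subunits Nfyb (−0.74, adjusted p = 0.00031) and Nfyc (−0.4) and the sensor Atf6 (−0.44). Against vehicle 1 was lower with D3T (Ern1, −0.41), 4 lower at 10 μmol/kg (Creb3l2 −1.02, Atf6b −0.8, Eif2ak3 −0.57, Creb3 −0.45) and 5 lower at 30 μmol/kg (Eif2ak3 −0.6, Nfyb −0.49, Nfyc −0.47 and Nfya −0.43 among them). From 10 to 30 μmol/kg 2 were higher, Atf6b (0.64) and Xbp1 (0.45). In the genotype difference between 30 μmol/kg and D3T, Xbp1 was higher (0.65) and Nfyb (−0.85) and Atf6 (−0.66) lower.

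Of 20 genes of ER-associated degradation, which exports misfolded proteins for destruction, 6 were higher and 1 lower at 30 μmol/kg than with D3T (median 0.27), led by the ligase Syvn1 (1.62, SE 0.35, adjusted p = 0.00071), Ubxn4 (0.76), Edem2 (0.71) and Sel1l (0.57). Between 30 and 10 μmol/kg 8 were higher, led by Syvn1 (1.53), Ube2g2 (0.98), Edem1 (0.75) and Sel1l (0.7). Against vehicle none passed with D3T by limma (5 with an unadjusted p under 0.05), 6 were lower at 10 μmol/kg (Ube2g2 −0.77, Edem1 −0.63, Sel1l −0.63 and Selenos −0.39 among them), and 2 higher at 30 μmol/kg (Edem2 0.46, Vcp 0.27). The genotype difference passed for Syvn1 (1.49) and Ubxn4 (1.06). Of 28 genes of translocation and glycosylation, 3 were higher and 1 lower at 30 μmol/kg than with D3T (median 0.07), namely Sec61a1 (0.53), Spcs3 (0.49), Ssr3 (0.36) and Spcs1 (−0.26). Here 9 were lower at 10 μmol/kg than with vehicle (Spcs2 −0.81, Mogs −0.69, Ostc −0.69 and Srprb −0.68 among them) and 11 higher and 1 lower at 30 than at 10 μmol/kg (Spcs2 1.02, Ostc 0.76, Sec61a1 0.6 and Mogs 0.59 leading).

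Of 18 genes of transport from the ER to the Golgi, 3 were higher and 1 lower at 30 μmol/kg than with D3T (median −0.02), with the cargo receptor Surf4 (0.74, adjusted p = 0.00068), Sec24d (0.57), Lman1 (0.4) and Kdelr1 (−0.19). The genotype difference was higher for 5 of them, Surf4 (1.13), Sec24d (0.94), Lman1 (0.62) and Sec24a (0.39) among these. At 10 μmol/kg in Wt 4 were lower than with vehicle, and 4 were higher at 30 than at 10 μmol/kg. In Nrf2-null liver 3 were higher with D3T than with vehicle, beside 2.27% of all genes. Against D3T in Wt, 4 of 18 were lower at 10 μmol/kg. So were 8 of 28 translocation genes, 4 of 13 sensors and factors and 3 of 28 folding factors. Of 20 degradation genes 1 was lower and 1 higher, and 1 sensor or factor was higher. Over all genes 4.87% were called higher and 13.8% lower. Of 11 measured plasma proteins that hepatocytes secrete, the clients of these chaperones, none was higher and 2 were lower at 30 μmol/kg than with D3T (Apoa1 −0.22, Apoh −0.13, median of the list −0.05), which is near the shares over all genes. Against vehicle 0 of 11 passed by limma with D3T or 10 μmol/kg (0 and 1 with an unadjusted p under 0.05) and 1 at 30 μmol/kg (Apoa1, −0.15).

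Outside the 10 genes, 32 named genes carried the ERSE in their promoter, and 10 of these were measured in liver. Of the 10, 4 were higher and none lower at 30 μmol/kg CDDO-Im than with D3T in Wt (median 0.33). Over all genes the shares were 4.45% and 26.2%. The 4 were Syvn1, Ero1b, Dnajc3 (0.77, adjusted p = 0.0013) and Canx (0.3, adjusted p = 0.0067), all already on the lists of folding factors or degradation genes. Those not called were Alg12 (0.43), Derl3 (0.36), Acnat2 (−0.15), Adcy3 (−0.23), Pan2 (−0.34) and Acacb (−1.1), of which only Derl3 is on these lists. Among the members, Sdf2l1, Pdia4, Dnajb9 and Dnajb11 have no exact ERSE in the window, and Manf has no entry. Their differences between 30 μmol/kg and D3T ran from 0.69 to 2.14, and those of the 5 with the element from 0.53 to 2.56.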

How the data were processed

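Liver RNA of 40 mice was measured on 40 arrays. The authors deposited log2 values that they had normalized and summarised by GCRMA from probe intensities, with no genome alignment involved; the columns hold 1 array each. Symbols came from the platform annotation (34945 probe sets with 1 symbol, 932 with several, 9160 unnamed here; 34741 matched RefSeq, GRCm38.p6). Groups and replicate numbers came from the labels. The number of arrays, 4 a group, limits the precision. That the mice were separate animals is given by their numbers.

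Probe sets were kept where 3 or more arrays of 1 group reached log2 4, and the one with the highest mean stood for its gene. limma 3.58.1 (R 4.3.3) fitted 10 group means with moderated, trended and robust variances, and p-values were adjusted by Benjamini-Hochberg over 9695 genes in each of 19 comparisons, of which 4 were added after the data were seen. Limma replaced the rank tests that the methods name, and the exact Wilcoxon test was kept as an alternative. Fits were tested on simulated data. Members and gene lists were chosen with earlier results of these data known. Named were all members and, from each list, up to 4 called genes of largest change. Columns of the authors' own comparisons were not used.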

Additional observations from a re-analysis of the deposited data

Results flagged for a closer look

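In 5 of 100 sets of 4 mice, 1 mouse stood apart from the other 3 by more than Dixon's limit, a share that chance gives about 1 in 20 times. Hspa5 in Nrf2-null CDDO-Im 30 mice was 14.3 against 14.96 to 15.05 (gap over range 0.89), and Hsp90b1 in Wt CDDO-Im 10 mice was 14.18 against 14.38 to 14.39 (0.926). Sdf2l1 was 9.65 against 10.72 to 10.87 in Wt CDDO-Im 3 mice (0.879), and 10.22 against 9.59 to 9.67 in Nrf2-null CDDO-Im 30 mice (0.873), the high mouse being the one with the highest pancreas markers. Manf in Wt D3T mice was 11.7 against 12.26 to 12.37 (0.838).

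Effects that differed between genotypes by the interaction term (Wt minus Nrf2-null, log2) were that of Pdia4 at 30 μmol/kg CDDO-Im against vehicle (0.87) and, for 30 μmol/kg CDDO-Im against D3T, those of Creld2 (2.89), Sdf2l1 (1.88), Hspa5 (0.99), Pdia4 (0.98) and Hsp90b1 (0.74).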

How the results depend on the processing

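Of 32 member changes called over the 19 comparisons, none reversed under any alternative, 17 passed under every alternative other than leaving out a mouse, 17 under every left-out mouse, and 15 under both. The members called against vehicle in Wt were 1 with D3T and 2 at 10 μmol/kg without an expression minimum, 8 with D3T under array weights, and 2 at 30 μmol/kg with the mean of all kept probe sets. In Nrf2-null mice array weights gave 1 with D3T, 3 at 3 μmol/kg, 5 at 10 μmol/kg, and 2 between 30 and 10 μmol/kg. For Nrf2-null against Wt vehicle the count was 2 under array weights and 0 in the fit to those groups only and by the exact Wilcoxon test with a 1.5-fold minimum. For 10 μmol/kg against D3T in Wt it was 0 without a minimum and by the Wilcoxon test, and 2 under array weights, in the fit to those groups only and with the mean of probe sets. The genotype difference was 1 at 10 μmol/kg with the mean of probe sets. At 30 μmol/kg it was 0 without a minimum, in the fit to those groups only and without the 3 mice with pancreas markers (or those and Nrf2-null D3T replicate 4), and 2 with the mean of probe sets. For 30 μmol/kg against D3T it was 3 without a minimum, 8 under array weights and 1 without those 4 mice, and for 30 against 10 μmol/kg it was 1 in the fit to those groups only. The cause was not tested.

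Leaving out 1 mouse gave 0 to 5 called with D3T, 0 to 5 at 10 μmol/kg and 0 to 2 at 30 μmol/kg against vehicle in Wt, 8 to 10 for 30 μmol/kg against D3T, 6 to 7 for 30 against 10 μmol/kg, and 0 to 1 for 10 μmol/kg against D3T. It gave 0 to 2 at 3 μmol/kg and 0 to 3 at 10 μmol/kg in Nrf2-null mice, 0 to 1 between vehicle groups, 0 to 1 for the genotype difference at 30 μmol/kg and 3 to 8 for that of 30 μmol/kg against D3T. A fit with replicate number as block (replicate block) gave counts of 4, 4, 1, 10 and 7 for D3T, 10 and 30 μmol/kg against vehicle, 30 μmol/kg against D3T and 30 against 10 μmol/kg in Wt, and 6 for the genotype difference of 30 μmol/kg against D3T. Same-numbered mice did not deviate together as a whole (r from −0.32 to 0.37, median 0, over 180 pairs). Of these pairs 29 were over 0.1, beside 110 of 540 pairs of other numbers. No pairing by number was thus seen over all pairs, which cannot exclude it in single groups. Centring moved the share of higher among all calls from 26.1% to 44.6% for 10 μmol/kg against D3T in Wt, from 40% to 76.6% at 3 μmol/kg and from 28.6% to 60% at 10 μmol/kg in Nrf2-null mice, and from 20.6% to 72.6% for the genotype difference of 30 against 10 μmol/kg. Values near the floor of the array, as for 2 of the 17 probe sets, carry no order.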

Other observations

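Heat shock proteins of the cytosol and mitochondria, which are driven by another factor than the ER genes, had 9 of 19 measured genes lower at 10 μmol/kg CDDO-Im than with vehicle in Wt (median −0.79): Hspa1a (−2.48, SE 0.68, adjusted p = 0.011), Hspb1 (−1.86, SE 0.39, adjusted p = 0.0015), Hsph1 (−1.73, SE 0.47, adjusted p = 0.011) and Cryab (−1.2, SE 0.41, adjusted p = 0.039) led by limma. Over all genes 12.4% were called lower at that dose. With D3T 0 of 19 passed by limma (median −0.35), and 5 had an unadjusted p under 0.05. At 3 μmol/kg 0 passed (median −0.33), with 4 at an unadjusted p under 0.05. Between the vehicle groups 4 of 19 were lower in Nrf2-null than in Wt mice (median −0.48), beside 4.97% of all genes. After 30 μmol/kg in Wt, Hspa8 alone was higher than vehicle (0.53), and 7 were higher than at 10 μmol/kg, led by Hsph1 (1.92), Hspb1 (1.62), Hsp90aa1 (1.04) and Stip1 (1.04). Of all genes 2.81% and 5.25% were called higher in these comparisons. Against D3T, Hspa8 (0.75) and Hsp90aa1 (0.65) were higher at 30 μmol/kg, and both passed as genotype differences (1.11 and 0.99).

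Of 11 measured genes of the integrated stress response, the branch that Eif2ak3 shares with other kinases, the pseudokinase Trib3 was higher (2.7, SE 0.54, adjusted p = 0.00092) and Ddit3 lower (−0.62) at 10 μmol/kg in Wt, where 5.06% of all genes were called higher and 12.4% lower. After 30 μmol/kg Ddit4 (1.43) and Sesn2 (0.56) were higher and Ddit3 was lower (−0.59), and with D3T none of the 11 passed by limma, and 1 had an unadjusted p under 0.05. Over all genes 2.81% were called higher and 20.8% lower at 30 μmol/kg, and 2.64% and 1.59% with D3T.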
